A study of Arabidopsis thaliana with 4 samples.

Results

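The regions described here are the stretches of pericentromeric DNA that carried more CG methylation in ndx1-4 seedlings than in Col-0 seedlings. They were chosen from the deposited list of differentially methylated regions between the genotypes by 3 conditions. The region was listed for the CG context, its level was higher in ndx1-4 than in Col-0, and its midpoint lay in one of the pericentromeric windows at chr1 12.9 to 16.9 Mb, chr2 2.0 to 6.6 Mb, chr3 11.2 to 16.0 Mb, chr4 2.4 to 5.8 Mb or chr5 10.1 to 14.4 Mb. The copy of the mitochondrial genome at chr2:3250465-3509765 was left out. These conditions gave 226 CG gains, out of 7023 listed regions of any context. On the 5 nuclear chromosomes 2867 CG regions were listed, of which 56.3% were higher in ndx1-4, and the 226 gains stood beside 243 CG losses in the same windows and 1385 CG gains outside them. Because the regions were selected on the level difference itself, the direction and size of that difference are description and carry no test.

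Genomic DNA of whole Arabidopsis thaliana seedlings, 14 days old, was analysed by bisulfite sequencing with 2 libraries of ndx1-4 and 2 libraries of Col-0. ndx1-4 is a T-DNA insertion line of NODULIN HOMEOBOX (NDX) in the Col-0 background and was the only mutant allele, and Col-0 is the wild-type accession. Each library was read as 150-nt pairs, and the labels give 15000000 to 17000000 raw reads. For each region the list gives a single methylation level per genotype, a fraction from 0 to 1, so no spread between libraries can be stated, the read depth behind a level is unknown, and none of the differences could be tested over plants. Whole seedlings mix many cell types, so a level of 0.5 cannot be told apart from full methylation in a part of the cells.

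Plant cytosines are methylated in 3 sequence contexts. They are called CG, CHG and CHH, and H stands for any base but G. CG methylation is copied onto the new strand after replication by MET1, CHG methylation is kept up by CMT3 together with histone H3 lysine 9 methylation, and CHH methylation is laid down by CMT2 or, guided by small RNAs, by DRM2. Pericentromeric DNA flanks the centromeres, is rich in transposons and repeats, and normally carries dense methylation in every context, whereas the bodies of many genes carry CG methylation alone.

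The following sequences show what the gains look like at the base level. They are the plus strand of the RefSeq TAIR10.1 assembly, 5′ to 3′, with each CG dinucleotide in capitals. The first pair lies entirely in coding sequence, in the gene AT1G44000 for a STAY-GREEN-like protein and in the desaturase gene DES-1-LIKE (AT4G04930).
AT1G44000, chr1:16708213-16708268: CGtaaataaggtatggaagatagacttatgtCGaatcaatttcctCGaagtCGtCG
DES-1-LIKE, chr4:2510272-2510473: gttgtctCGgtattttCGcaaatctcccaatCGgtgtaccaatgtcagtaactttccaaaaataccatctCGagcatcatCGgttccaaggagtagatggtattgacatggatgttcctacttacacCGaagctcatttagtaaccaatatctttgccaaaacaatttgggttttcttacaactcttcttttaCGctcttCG
The next pair lies outside genes and gained CG, CHG and CHH methylation together.
147 bp from AT5G33406, chr5:12675702-12675908: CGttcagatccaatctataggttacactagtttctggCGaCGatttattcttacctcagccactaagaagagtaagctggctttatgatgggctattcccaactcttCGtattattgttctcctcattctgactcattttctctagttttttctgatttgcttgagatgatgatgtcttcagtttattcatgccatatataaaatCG
54 bp upstream of AT5G35405, chr5:13604798-13605056: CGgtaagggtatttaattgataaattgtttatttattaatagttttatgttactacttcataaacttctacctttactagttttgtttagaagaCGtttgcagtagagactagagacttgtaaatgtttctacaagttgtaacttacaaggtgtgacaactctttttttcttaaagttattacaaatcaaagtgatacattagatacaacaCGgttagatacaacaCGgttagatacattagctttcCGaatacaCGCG
The next region, which runs into a long CT repeat, gained CG methylation where CHH methylation was lower in ndx1-4.
570 bp from AT3G42680, chr3:14762058-14762301: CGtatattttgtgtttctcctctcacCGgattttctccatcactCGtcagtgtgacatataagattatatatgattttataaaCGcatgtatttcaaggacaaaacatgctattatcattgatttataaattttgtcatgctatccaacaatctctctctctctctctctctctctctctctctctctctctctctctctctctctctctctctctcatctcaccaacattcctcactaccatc
The region with the smallest gain lies by the ribosomal RNA genes and is crowded with CG sites.
347 bp from AT3G00660, chr3:14194044-14194155: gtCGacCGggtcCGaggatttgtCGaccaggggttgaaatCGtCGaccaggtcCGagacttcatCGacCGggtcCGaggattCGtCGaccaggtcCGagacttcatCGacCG
Where a gain covered a microRNA gene, the precursor and its mature strand are shown from the minus strand. In the precursor the capitals mark CG sites, and in the mature sequence, written with T for U, they mark the seed at bases 2 to 8.
MIR396a precursor, chr2:4142323-4142473: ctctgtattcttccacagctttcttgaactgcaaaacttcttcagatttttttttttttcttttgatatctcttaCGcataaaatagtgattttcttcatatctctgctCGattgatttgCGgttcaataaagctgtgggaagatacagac
miR396a mature, chr2:4142443-4142463: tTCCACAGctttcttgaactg
The last sequence is the region over the start of MIR2937, on the plus strand with CG in capitals.
MIR2937, chr5:13622411-13622473: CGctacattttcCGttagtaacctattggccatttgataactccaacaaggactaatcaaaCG

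At most of the pericentromeric CG gains the Col-0 level was under 0.2. The ndx1-4 level had a median of 0.665 with quartiles at 0.504 and 0.774, against a Col-0 median of 0.171 with quartiles at 0.0674 and 0.338. The ndx1-4 levels ran from 0.157 to 0.930 and the Col-0 levels from 0.0123 to 0.844. The difference of ndx1-4 minus Col-0 had a median of 0.397 and ran from 0.0564 to 0.804, and the smallest loss in the windows was -0.0554. In Col-0 the level was under 0.2 at 125 regions, 55.3% of the gains, and under 0.1 at 79 regions, 35.0%. A further 75 regions had a Col-0 level of 0.2 to 0.5 and 26 regions one of 0.5 or more. Of the CG gains outside the windows, 64.0% had a Col-0 level under 0.2 and 44.2% one under 0.1. A low Col-0 level was thus less frequent among the pericentromeric gains. The gains were chosen for a lower level in Col-0, so these shares are description.

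The CG gains outside the windows had a lower median in ndx1-4, 0.612, and in Col-0, 0.127, with nearly the same median difference, 0.409. Pericentromeric gains more often reached an ndx1-4 level of 0.8 or more, 43 regions or 19.0%, than the gains outside, 10.6%. They also more often had a Col-0 level of 0.5 or more, 11.5% against 4.91% outside. Both levels were used in the choice of the regions, so these shares are description. All intervals of shares given here cover only the counting of regions, not variation between plants. The CG losses in the windows, which differ from the gains by the direction that defines them, had a median of 0.0957 in ndx1-4, 0.627 in Col-0 and -0.406 for the difference.

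**Figure D1:**
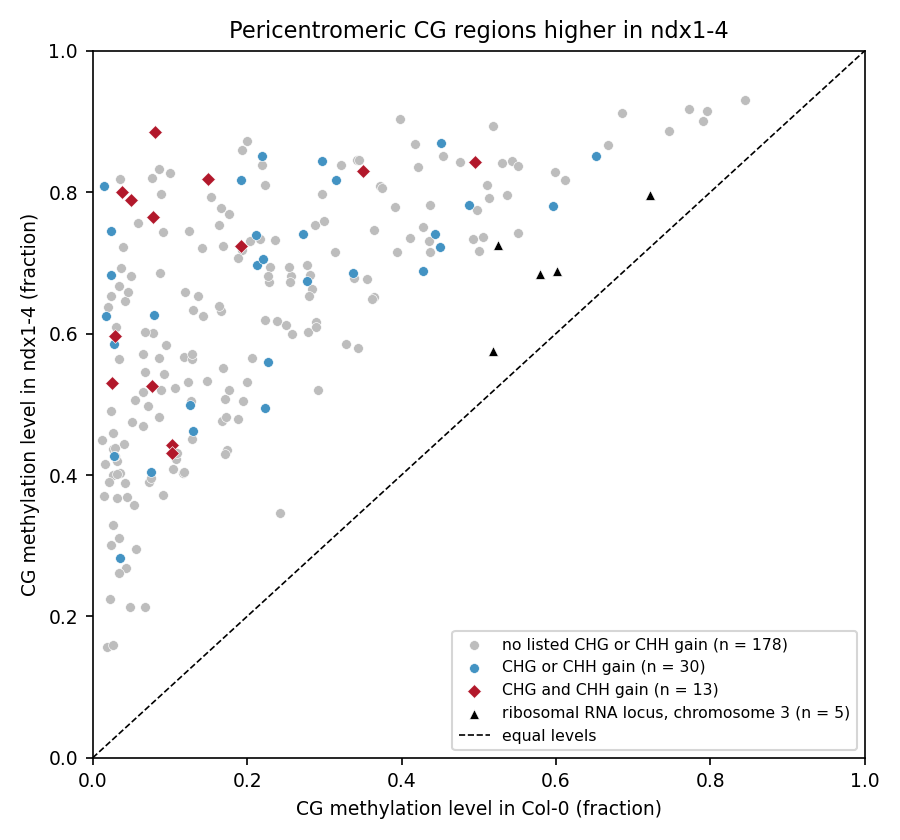
CG methylation level in ndx1-4 (vertical axis, fraction) against Col-0 (horizontal axis, fraction) for the 226 pericentromeric CG gains, coloured by whether a CHG or CHH gain was listed at the same place. Points crowd at the left edge because 125 regions had a Col-0 level under 0.2, and the 5 triangles by the ribosomal RNA genes lie close to the line of equal levels.

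The gains were short, and their CG density was above that of the windows as a whole. Their median length was 121.5 bp, from 51 to 876 bp, and the median number of CG cytosines, counted on both strands, was 8.5, from 4 to 58. The median CG density was 3.77 per 100 bp, against 2.38 per 100 bp over all bases of the windows, while the median GC content was 35.8%, close to the 36.7% of the windows. The CG losses in the windows had 3.63 CG per 100 bp and the gains outside had 4.06. Every gain held at least 4 CG cytosines, but whether the list required a minimum is not known. Both ends of every listed nuclear CG region fell on a CG cytosine, so a short region holds CG sites at its ends by construction. The part of either in the higher density was not tested. At 170 gains, 75.2%, every CG cytosine of the reference sequence had been counted by the authors, and at the others some had not.

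The gains were spread over single sites. When gains within 1 kb of each other were joined, 219 loci were left, of which 212 held a single region and 7 held a pair, and together the regions covered 37.3 kb of 20.8 Mb. The density was 10.8 per Mb for the gains, 11.7 per Mb for the losses in the windows and 14.1 per Mb for the gains outside. Chromosome 4 had 13.8 gains per Mb and chromosome 5 had 12.6, while the other chromosomes had 9.38 to 9.75. Chromosome 5 had 54 gains and 36 losses, whereas chromosome 2 had 41 gains and 75 losses. The levels differed little between chromosomes, with ndx1-4 medians of 0.599 to 0.706 and Col-0 medians of 0.139 to 0.219.

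Pooled over the 5 windows, gains were more frequent towards the borders. Counted by distance from the window centre in steps of 25% of the half-length, there were 24, 29, 61 and 112 gains, or 4.55, 5.78, 11.6 and 21.2 per Mb. The outermost band held the most gains on every chromosome, 24, 16, 23, 27 and 22 on chromosomes 1 to 5, but the inner bands did not rise evenly in each: chromosome 5 had 9 gains in the innermost band and 3 in the next, and chromosome 3 had 11 in the second and 6 in the third. The CG losses had a similar slope, with 36, 34, 75 and 98 regions and 6.82, 6.78, 14.2 and 18.6 per Mb. The share of bases in protein-coding genes ran the same way, at 4.77%, 5.84%, 15.2% and 25.3%. CHH losses, the most numerous class in the windows, did not, with 63.7, 60.8, 62.0 and 45.3 per Mb. The windows' borders are fixed positions, and a change at them was not tested. For each of the 10 borders the nearest gain inside and the nearest gain outside were taken. Those inside had medians of 0.695 in ndx1-4 and 0.20 in Col-0, and those outside 0.617 in ndx1-4 and 0.165 in Col-0. They lay up to 107915 bp from the border inside and up to 149579 bp outside.

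**Figure D2:**
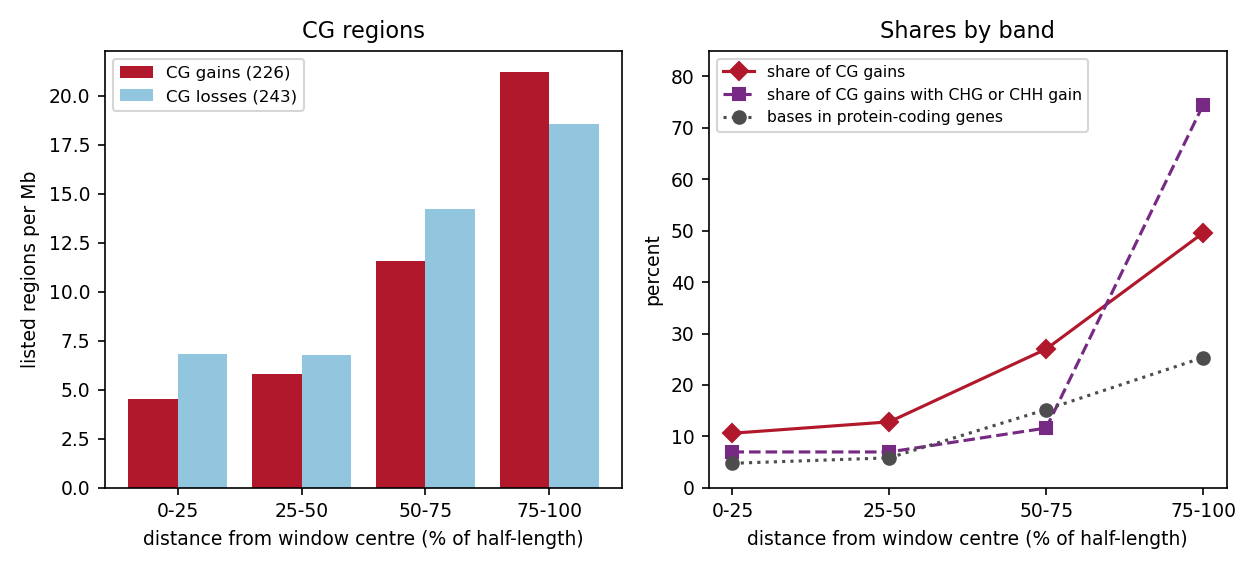
Left, listed regions per Mb (vertical axis) of CG gains and CG losses by distance from the window centre in percent of the half-length (horizontal axis). Right, share of gains, of gains with a CHG or CHH gain, and of bases in protein-coding genes (vertical axis, percent) by the same distance: 32 of the 43 gains joined by another context fell in the outermost band.

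Protein-coding genes held 66 of the gains, 29.2% with a Wilson interval of 23.7% to 35.4%, in windows where such genes take up 12.9% of the bases. An overlap of 1 bp was enough for a gain to count, so the 2 shares are unlike measures. Position matters too, since the outermost band held 112 gains. From the innermost band outwards, 12.5%, 13.8%, 39.3% and 31.25% of the gains lay in such genes, beside 4.77%, 5.84%, 15.2% and 25.3% of the bases. Of the losses in the windows 23.5% lay in a protein-coding gene, and of the gains outside 57.5% did. Of the 66, 27 lay wholly in coding sequence and 21 covered coding sequence and another part. A further 7 touched an untranslated exon but no coding sequence, and 11 touched an intron alone. A further 133 gains, 58.8%, touched no annotated gene or pseudogene, and transposons as such were not annotated here. Pseudogenes, which in this annotation include many transposon genes, took up 34.5% of the bases of the windows but held 21 gains, 9.29%, against 14.4% of the losses. A further 7 gains lay in genes for non-coding RNA.

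**Figure D3:**
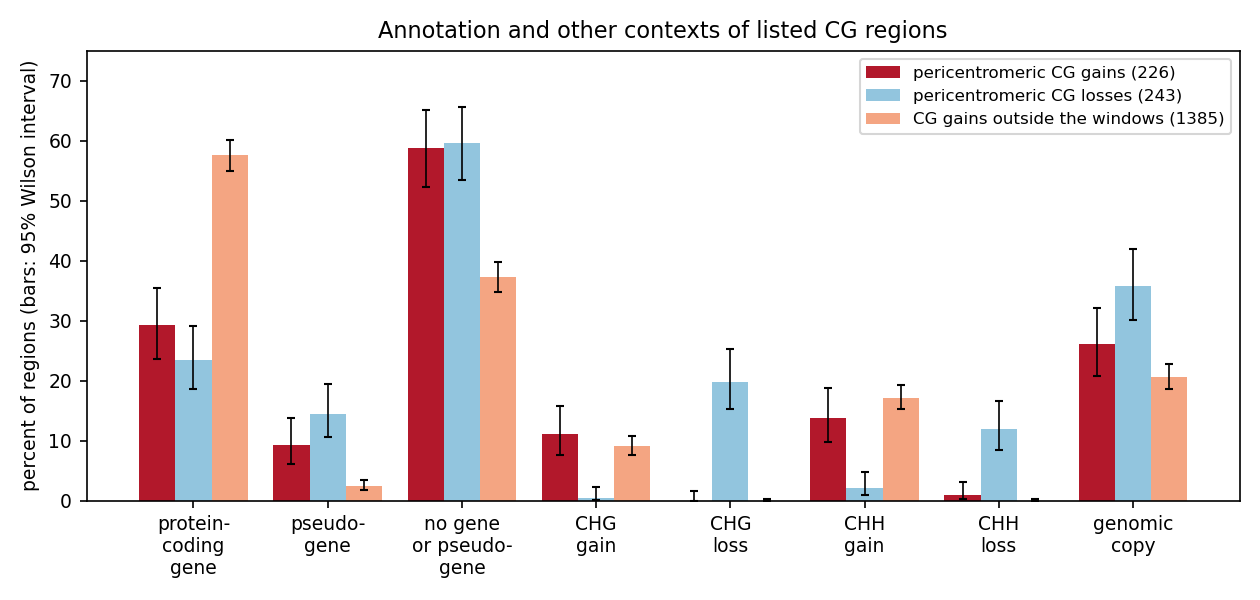
Percent of regions (vertical axis) in each annotation class and with each other listed context, for pericentromeric CG gains, pericentromeric CG losses and CG gains outside the windows, with 95% Wilson intervals over regions. The gains stand at 29.2% for protein-coding genes, between the losses at 23.5% and the gains outside at 57.5%, and of the CHG and CHH regions that overlapped them nearly all were gains.

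Gains inside genes were mostly changes of CG alone, as were 80.1% of all gains. Only 7 of the 66, 10.6%, had a listed CHG or CHH gain at the same place, against 31 of the 133 gains away from genes and pseudogenes, 23.3%. Those in genes had a median GC content of 42.2% and 4.18 CG per 100 bp, and those away from genes 32.1% and 3.09. The gains in genes were also shorter, with a median of 100 bp against 134 bp. The part of length in the shares of overlap was not tested. The levels were alike, with medians of 0.636 in ndx1-4 and 0.158 in Col-0 for the gains in genes, and 0.675 in ndx1-4 and 0.176 in Col-0 for those away from genes and pseudogenes. The 66 gains fell in 62 of the 1449 protein-coding genes of the windows.

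The largest differences in protein-coding genes were found in genes of several functions, enzymes among them. The gain in AT5G32470, annotated as a heme oxygenase-like protein, had a level of 0.872 in ndx1-4 and 0.20 in Col-0 over 8 CG cytosines, mostly in coding sequence. A second gain of that gene, chr5:12086863-12086962, had 0.869 in ndx1-4 and 0.417 in Col-0 over 4 CG cytosines. DES-1-LIKE, whose product belongs to the fatty acid desaturases and acts on sphingolipids, had 0.860 in ndx1-4 and 0.193 in Col-0 over 9 CG cytosines in the region printed above. Its second gain, chr4:2510582-2510761, began a little farther on and had 0.912 in ndx1-4 and 0.685 in Col-0, so neighbouring parts of the same coding sequence differed in their Col-0 level more than in their ndx1-4 level. In CAC2 (AT5G35360), the biotin carboxylase subunit of the plastid acetyl-CoA carboxylase that starts fatty acid synthesis, the level was 0.685 in ndx1-4 and 0.0869 in Col-0. The 56-bp region in AT1G44000 had 0.682 in ndx1-4 and 0.0494 in Col-0 over 10 CG cytosines. AT4G08790, a member of the nitrilase family, had 0.659 in ndx1-4 and 0.0457 in Col-0 within an intron.

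Among regulators and genes of other kinds, AGL44 (AT2G14210), a MADS-box factor of the root response to nitrate, carried a 403-bp intronic gain with 0.721 in ndx1-4 and 0.141 in Col-0 over 22 CG cytosines. AT5G28900, for a calcium-binding EF-hand protein, had 0.810 in ndx1-4 and 0.224 in Col-0 in an intron, and AT2G07170, for an ARM repeat protein, had 0.724 in ndx1-4 and 0.169 in Col-0. The uncharacterized AT3G29280 had 0.793 in ndx1-4 and 0.153 in Col-0, and the region at the uncharacterized AT3G43970 had 0.80 in ndx1-4 and 0.0384 in Col-0. Only 154 bp of coding sequence and 16 bp of intron of AT3G43970 lay in that 870-bp region, so most of it was outside the gene. The second gains of AT5G32470 and DES-1-LIKE were added after their values were seen. The other pair of genes with 2 gains each, named after their values were seen, consisted of ORP1C (AT4G08180), an oxysterol-binding protein relative, and AT1G42470, a Patched family protein. ORP1C had 0.677 and 0.672 in ndx1-4, against 0.356 and 0.229 in Col-0. AT1G42470 had 0.520 and 0.735 in ndx1-4, against 0.291 and 0.411 in Col-0.

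Smaller gains lay in further well-known genes, which were chosen here after their values were seen. GS2, the plastid glutamine synthetase of ammonium assimilation, had 0.518 in ndx1-4 and 0.0651 in Col-0 over 5 CG cytosines. GA20OX5, a gibberellin 20-oxidase, had 0.459 in ndx1-4 and 0.0269 in Col-0 over 6 CG cytosines. PMI1, required for chloroplast movement, had 0.625 in ndx1-4 and 0.143 in Col-0, and PRK1, a receptor-like kinase gene, had 0.565 in ndx1-4 and 0.0344 in Col-0. DRP3B, a dynamin relative that divides mitochondria and peroxisomes, had 0.759 in ndx1-4 and 0.300 in Col-0. PDF2, a homeodomain factor of the shoot epidermis, had 0.716 in ndx1-4 and 0.313 in Col-0.

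NDX and 19 genes of DNA methylation, its removal and pathways linked to it were also looked up. Of the 20, only DCL3, which makes the small RNAs that guide DRM2, lay in the windows, and none had a pericentromeric gain within 2 kb. Outside the windows 4 of the 19, DRM2, IBM1 and the DNA demethylases DML2 and DML3, had a listed CG gain within 2 kb, where 8.89% of all 27444 protein-coding genes had one. NDX itself had a listed CG loss within 2 kb, as did 6.61% of all protein-coding genes. With so few genes nothing can be read from these counts.

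Non-CG methylation was mostly not listed at the gains, and where it was, it nearly always changed in the same direction. Of the 226 gains, 25 (11.1%) overlapped a CHG gain and 31 (13.7%) a CHH gain. There were 13 with both (5.75%), 12 with CHG alone and 18 with CHH alone. The CG gains outside the windows had similar shares, with a CHG gain at 9.10%, a CHH gain at 17.2% and both at 6.35%. Gains in all 3 contexts were thus not particular to the windows. A CHG loss overlapped 0 of the 226 gains, with a Wilson upper limit of 1.67%, and a CHH loss overlapped 2. The other 181, 80.1%, had no other listed context, as did 80.1% of the gains outside. The losses in the windows showed the opposite pairing, with a CHG loss at 19.8% and a CHH loss at 11.9%. Listed regions are a selection, so a place without a listed CHG or CHH region may still have changed below the limits of the list.

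Seen from the other contexts, the overlap was uneven. The 28 CHG regions that met a CG gain were 60.9% of the 46 CHG gains listed in the windows, whereas the 32 CHH regions were 13.1% of the 244 CHH gains there. Most pericentromeric CHG gains thus lay on a CG gain, and most CHH gains did not. The 28 CHG regions had a median level of 0.352 in ndx1-4 and 0.0334 in Col-0. The 32 CHH regions had 0.0903 in ndx1-4 and 0.0158 in Col-0. A CHH loss lay within 1 kb of 15 gains (6.64%). This was less often than for the CG losses in the windows, at 22.6%, and more often than for the CG gains outside, at 2.02%.

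The 13 regions with gains in all 3 contexts were longer, and had lower Col-0 medians, than the gains with no other listed context. Their median length was 207 bp, against 109 bp, and the median CG level was 0.766 in ndx1-4 and 0.0810 in Col-0, against 0.649 in ndx1-4 and 0.169 in Col-0 for the 181 gains with no other listed context. A longer region overlaps other listed regions more easily, and Col-0 levels were used in the choice of the gains. Both differences are therefore description. Where more than 1 region of a context was listed at a place, the level of the one with the longest overlap was taken. Their CHG levels had a median of 0.385 in ndx1-4 and 0.0245 in Col-0, and their CHH levels 0.140 in ndx1-4 and 0.0140 in Col-0. The levels fell from CG to CHG to CHH at every one of the 13 in ndx1-4, the usual order of the contexts in Arabidopsis. The CHG and CHH levels belong to separately listed regions with borders of their own, which needed to share only 1 bp with the CG gain. The contexts were thus compared over different stretches. At the CG gain chr3:11761054-11761239, for example, the CHG region was chr3:11761217-11761267, with 4 cytosines. The outermost band of the windows held 8 of the 13 (61.5%) and 32 of the 43 gains with any CHG or CHH gain, beside 49.6% of all gains.

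The largest gain of all was of this kind. The region chr3:15500523-15501398, 876 bp long and 618 bp from AT3G43580, for a beta-galactosidase-related protein, had a CG level of 0.885 in ndx1-4 and 0.0810 in Col-0 over 58 CG cytosines. A pair of CHG gains overlapped it, with levels of 0.523 and 0.478 in ndx1-4, against 0.0175 and 0.0293 in Col-0, over 28 and 11 cytosines. The CHH gain there had 0.140 in ndx1-4 and 0.0207 in Col-0. On the same chromosome chr3:15776708-15777577, at AT3G43970, overlapped a CHG gain with 0.417 in ndx1-4 and 0.0183 in Col-0. It also overlapped a pair of CHH gains, with 0.0981 and 0.159 in ndx1-4, against 0.00770 and 0.0113 in Col-0. The 798-bp region chr1:13604291-13605088, 1552 bp from the nearest annotated gene, had CG levels of 0.766 in ndx1-4 and 0.0782 in Col-0, and the CHH gain there had 0.144 in ndx1-4 and 0.0537 in Col-0. Its pair of CHG gains had 0.385 and 0.406 in ndx1-4, against 0.0125 and 0.170 in Col-0, over 6 and 8 cytosines. At all 3 the CG level in ndx1-4 was above the listed CHG levels, and those were above the listed CHH levels.

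Of the pair printed above, the region near AT5G33406 had CG levels of 0.788 in ndx1-4 and 0.0498 in Col-0, with CHG at 0.267 in ndx1-4 and 0.0210 in Col-0 and CHH at 0.0449 in ndx1-4 and 0.0116 in Col-0. The region upstream of AT5G35405 had CG levels of 0.819 in ndx1-4 and 0.149 in Col-0, with CHG at 0.345 in ndx1-4 and 0.0462 in Col-0 and CHH at 0.0513 in ndx1-4 and 0.00846 in Col-0. Both kept a low CHH level in ndx1-4. At chr3:11744055-11744205, in contrast, methylation was already present in Col-0, with CG at 0.843 in ndx1-4 and 0.495 in Col-0, CHG at 0.635 in ndx1-4 and 0.227 in Col-0, and CHH at 0.164 in ndx1-4 and 0.0454 in Col-0.

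MicroRNA genes were met at 2 places. The 407-bp region chr2:4142087-4142493 covered the whole 151-bp precursor of MIR396a (AT2G10606), the microRNA that targets growth-regulating factor genes. Its CG level was 0.596 in ndx1-4 and 0.0291 in Col-0 over 18 CG cytosines. The CHG gain chr2:4142248-4142369 inside it had 0.335 in ndx1-4 and 0.0114 in Col-0. The CHH gain chr2:4142108-4142464 had 0.0589 in ndx1-4 and 0.0131 in Col-0. The precursor sequence holds 3 of the 9 CG sites of the region, and none falls in either mature strand. The 63-bp region at the start of MIR2937 (AT5G05185), singled out after its value was seen, had 0.827 in ndx1-4 and 0.101 in Col-0 over 6 CG cytosines, with no other listed context.

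**Figure D4:**
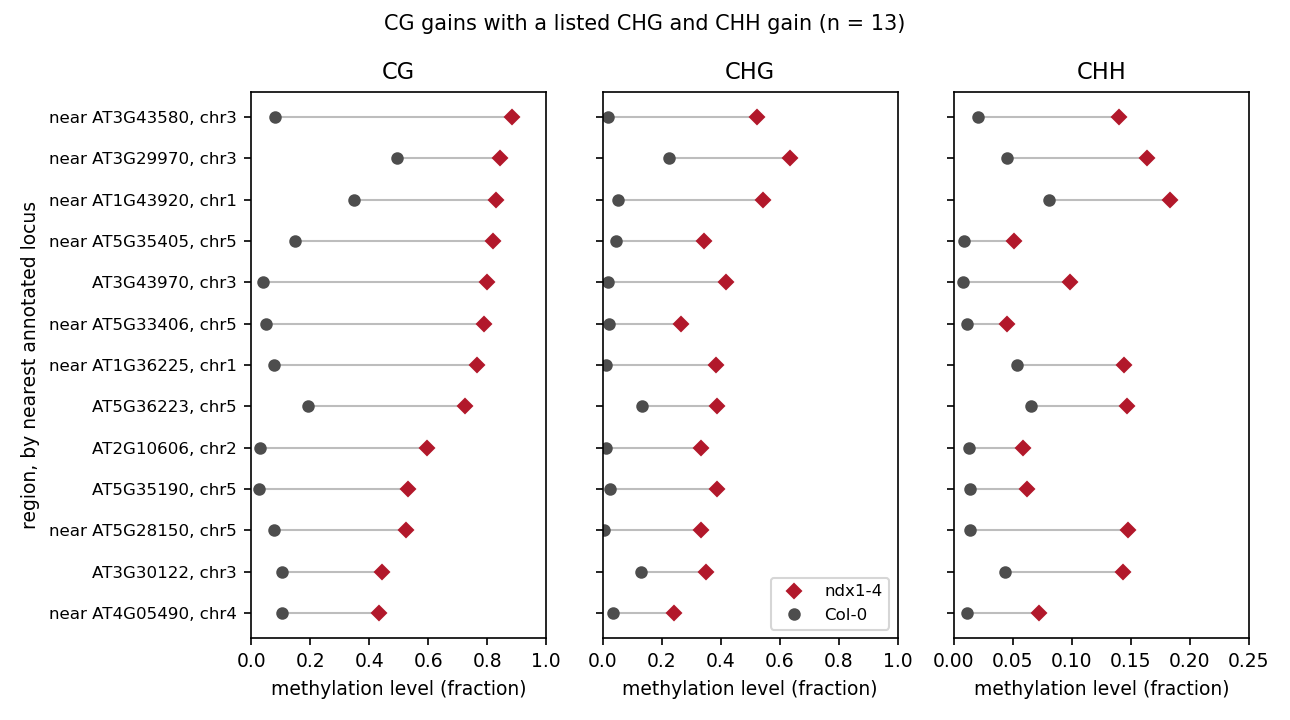
Methylation level (horizontal axes, fraction, with a shorter scale for CHH) in ndx1-4 and Col-0 at the 13 CG gains with a listed CHG and CHH gain, a row for each region named by its nearest annotated locus. The CHG and CHH levels are those of the listed regions that overlap the CG gain, with borders of their own. The median levels in ndx1-4 were 0.766 (CG), 0.385 (CHG) and 0.140 (CHH), and the Col-0 points lie to the left in every row.

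The largest difference on chromosome 4 had a CHH gain and no listed CHG region. The region chr4:2566483-2566800, 383 bp from AT4G05010, had 0.745 in ndx1-4 and 0.0243 in Col-0 over 30 CG cytosines, with CHH at 0.0964 in ndx1-4 and 0.0108 in Col-0. On the same arm chr4:2558194-2558597 had 0.743 in ndx1-4 and 0.0909 in Col-0, and chr2:2729885-2730387 had 0.798 in ndx1-4 and 0.0891 in Col-0. Some smaller differences carried a gain in every context. Pseudogene AT3G30122 was such a place, with a CG level of 0.442 in ndx1-4 and 0.103 in Col-0. A further pair of that kind, chr5:10134548-10134843 and chr4:2772599-2772697, had CG levels of 0.526 and 0.432 in ndx1-4, against 0.0774 and 0.103 in Col-0.

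The contexts moved apart at a single place. The neighbouring CG gains chr3:14761735-14761993 and chr3:14762058-14762301 had levels of 0.845 and 0.837 in ndx1-4, against 0.544 and 0.550 in Col-0, over 7 and 9 CG cytosines. A CHH loss listed over 110 cytosines at chr3:14761955-14762292 touched both, with a level of 0.201 in ndx1-4 and 0.344 in Col-0. This stretch was thus strongly methylated in Col-0 already, and lies 570 bp from AT3G42680. The difference between its contexts was not tested.

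Gains with a high Col-0 level differed from the others in copies and base composition. Of the 26 with a Col-0 level of 0.5 or more, 16 (61.5%) had a further copy in the genome of at least 80% identity over at least 80% of their length, against 28 of the 125 with a level under 0.2 and 15 of the 75 between. Their median GC content was 42.8%, against 34.8% and 34.5%, and 3 of the 26 lay in a protein-coding gene. The 26 include 5 regions of a single locus, by the ribosomal RNA genes of chromosome 3. Each of these had a copy, and their GC contents were 52.0% to 60.7%. Over all gains 59 (26.1%) had such a copy, compared with 35.8% of the losses in the windows and 20.6% of the gains outside, and 10 had 10 copies or more. The most repeated, singled out after its value was seen, was chr2:3683020-3683151 in pseudogene AT2G09820, with 223 copies and a level of 0.866 in ndx1-4 and 0.668 in Col-0. Reads from near-identical copies cannot be placed with certainty, so such levels may hold reads of several copies.

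Of the gains, 5 sat by the ribosomal RNA genes of chromosome 3, between chr3:14192919 and chr3:14204323, and 3 of them were among the 5 smallest differences of all. The other 2 were added after their values were seen. Their levels were 0.725, 0.575, 0.685, 0.689 and 0.796 in ndx1-4, against 0.526, 0.518, 0.580, 0.602 and 0.722 in Col-0, along the chromosome. They held 14 to 58 CG cytosines at 8.0 to 14.3 CG per 100 bp and GC contents of 52.0% to 60.7%. The third, chr3:14197359-14197633, ended 44 bp before the 18S rRNA gene AT3G41768, and the last pair lay at the ends of the annotated RNA AT3G06365. Each of the other 4 has an exact copy elsewhere in the assembly, in 3 cases at the same locus of chromosome 3, up to chr3:14204564, and in 1 case, that of chr3:14200204-14200516, at the ribosomal RNA genes at the start of chromosome 2.

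The direction was not the same at those genes on chromosome 2, which were looked at after these values were seen. All 4 listed CG regions in the first 10 kb of chromosome 2 were lower in ndx1-4, with levels of 0.212, 0.523, 0.744 and 0.629 in ndx1-4, against 0.293, 0.641, 0.861 and 0.726 in Col-0. On chromosome 3 a sixth CG region, chr3:14194946-14195252, was lower too, with 0.194 in ndx1-4 and 0.257 in Col-0, and the listed CHG regions of both places were all lower in ndx1-4. The assembly holds only a small part of the ribosomal RNA repeats, so a level here cannot be assigned to a single unit.

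The remaining small differences were of 2 kinds. The 71-bp region chr5:12533678-12533748 had the highest level of all gains in both genotypes, 0.930 in ndx1-4 and 0.844 in Col-0, over 13 CG cytosines. The 385-bp region chr1:16648474-16648858 had 0.346 in ndx1-4 and 0.243 in Col-0, with 10 of its 19 CG cytosines counted. Only 172 bp of it lay in an untranslated exon of RAB18, a small GTPase gene, and 3 bp in an intron. It also overlapped pseudogene AT1G43895. With no spread between libraries, differences of this size cannot be set against the variation between plants.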

How the data were processed

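DNA was fragmented, ligated to methylated adaptors and treated with bisulfite, which reads unmethylated cytosine as T. The submitters' processing notes name Bismark and the TAIR10 build. The region caller, its thresholds and coverage filters were not given in the sources used here. The authors deposited, for each region, a methylation level per genotype as a fraction, with the libraries of a genotype combined, and the count of cytosines in the region. The deposited table also holds 2 columns of the authors' own comparison (a difference and an area statistic), and 3 BED lists repeat the regions. None of these was used.

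The difference was recomputed as ndx1-4 minus Col-0. Coordinates were checked against RefSeq TAIR10.1: both ends of 100% of nuclear CG regions fell on a CG cytosine. Overlaps needed at least 1 bp. Upstream means within 1 kb of a gene's start. Copies were sought with blastn 2.17.0 (word size 11, e-value 1e-5, at least 80% identity over 80% of the length). Shares carry 95% Wilson intervals. The overlap search, the joining of regions and an interval of the median were tested on simulated data, but the Wilson intervals were not. The regions named are the 2 largest differences per chromosome with at least 10 cytosines, the 10 largest in protein-coding genes, up to 10 with CHG and CHH gains, the 5 smallest and those with the opposite direction in another context. The regions, windows and lists were chosen with earlier results of these data known.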

Additional observations from a re-analysis of the deposited data

How the results depend on the processing

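Of 52 alternative values for 12 results, 46 stayed within the interval of the main value or within 1.5 times a count, and 6 moved. Shares, counts and levels have no direction, and the gains were selected for a positive difference. A change of direction was therefore not possible. Narrowing each window by 0.5 Mb at both ends left 120 of the 226 gains. Requiring at least 50% of a gain to be covered brought the share with a CHG gain to 5.75%, from 11.1%. Counting CHH losses within 500 bp gave 4.42%, against 0.885% for overlap. A Col-0 level under 0.1 held for 35.0% of the gains, against 55.3% for 0.2. Copies of at least 95% identity were found for 7.08%, and copies over at least 50% of the length for 35.4%, against 26.1%. Leaving out each chromosome in turn gave median levels of 0.651 to 0.673 in ndx1-4 and 0.167 to 0.188 in Col-0. No paired analysis was possible because the table has no values of single libraries. The depth behind each level is unknown, so no level has an error of its own, and a change under the limits of the list is not seen.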

Other observations

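Within the mitochondrial copy on chromosome 2, which was left out of the gains, 2 CG regions were higher in ndx1-4 and 43 were lower. The 2 were chr2:3404585-3404703, with 0.249 in ndx1-4 and 0.0587 in Col-0 over 11 CG cytosines, and chr2:3497570-3497687, with 0.134 in ndx1-4 and 0.0820 in Col-0 over 15 CG cytosines. Reads of the mitochondrial genome itself cannot be told apart from those of this copy.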
